A study of Mus musculus with 38 samples.

Results

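The effect of NAM/PN on uninjured muscle of aged mice was examined in 12 of the 38 libraries of the study, namely the contralateral gastrocnemius of 6 aged mice given NAM/PN and of 6 aged mice given vehicle. Libraries were chosen by their titles, which give the treatment, leg and age. All were from male wild-type C57BL/6JRj mice. NAM/PN is a combination of nicotinamide (NAM, 200 mg/kg per day) and pyridoxine (PN, 4 mg/kg per day) in 1% sodium carboxymethyl cellulose, given by daily oral gavage from before the injury until tissue was taken, and vehicle was the cellulose alone. All 12 mice had received cardiotoxin, a venom toxin that kills muscle fibres, in the other leg 5 days earlier. The muscle studied here was therefore uninjured tissue of an injured animal, not tissue of an intact one. The injured leg was also sequenced in 4 of the NAM/PN mice and 3 of the vehicle mice.

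Nicotinamide is recycled to NAD by NAMPT and the NMNAT enzymes, and NAD is consumed by sirtuins, PARPs and the glycohydrolases CD38 and BST1. Pyridoxine is phosphorylated by PDXK on its way to pyridoxal 5'-phosphate (PLP), the cofactor of transaminases, glycogen phosphorylase and many decarboxylases. The gastrocnemius is a mostly fast muscle with a slow-fibre portion. It also holds muscle stem cells, fibro-adipogenic progenitors, vessels, nerve, fat and resident macrophages.

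Messenger RNA was counted by 3' sequencing, at 4429167 to 6332476 counts per library and 13126 to 14449 genes with counts. Values are given as CPM, counts scaled to library size after TMM normalisation. The tissue label was checked against fibre genes. The 20 fast-fibre genes together took 190349 to 336307 CPM in vehicle and 224662 to 325135 CPM in NAM/PN libraries, and none was at 0. Mitochondrial transcripts took 21.7% ± 2.53 (SD, n = 6) of counts with vehicle and 24.29% ± 5.87 (SD, n = 6) with NAM/PN, a difference of 2.59 percentage points (two-sided exact permutation test, p = 0.344). NAM/PN replicate 4 had the lowest share, 14.2%. Without it the difference was 4.61 points (exact permutation p = 0.039).

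Several libraries stood apart within their groups, and many results are given with and without them. Vehicle replicate 6 had 71 genes of at least 5 CPM (mean over the 12 libraries) at more than 2 times the level of any other library, against at most 22 in each of the others. NAM/PN replicate 4 had 210 genes at less than 0.5 times the next lowest library, and vehicle replicate 5 had 188. The first principal component took 58% of the variance over 8235 genes and set NAM/PN replicate 4 and vehicle replicate 4 (scores 69.98 and 56.95) against vehicle replicate 5 (score -51.54), so it did not follow treatment. Leaving out NAM/PN replicate 4 narrowed the spread of its group, with a median SD per gene of 0.26 in place of 0.38 on the log2(CPM + 1) scale. The median SD of the vehicle group was 0.427. What sets these libraries apart was not tested.

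Transcripts of aged uninjured muscle differed little between NAM/PN and vehicle. Of 12610 genes tested by edgeR's quasi-likelihood test, 1 passed an adjusted p of 0.05 (0.00793% of genes) and 518 had an unadjusted p under 0.05 (4.11%), 131 of them higher and 387 lower with NAM/PN. The 1 gene that fell was Saa3, an acute-phase serum amyloid A gene (ENSMUSG00000040026, GRCm38 chromosome 7, 46711998 to 46715700). It measured 934 CPM in vehicle replicate 6, at most 0.504 CPM in the other 5 vehicle libraries and at most 0.412 CPM in the 6 NAM/PN libraries. The groups overlapped outside that single library. Its log2 fold change was -9.65 (SE 1.77, edgeR adjusted p = 0.0482), and it was -0.18 (95% interval -2.47 to 2.11) without vehicle replicate 6. Without that library 0 genes passed in edgeR, 399 had an unadjusted p under 0.05 (3.17%), and 238 of these also had one with all libraries, all in the same direction. Leaving out NAM/PN replicate 4 instead raised the unadjusted count to 861 of 12610 genes, and leaving out both libraries raised it to 1117 of 12592. In both cases 0 genes passed.

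The width of the intervals gives an approximate resolution of these data. The unadjusted 95% interval of the log2 fold change extended a median of 0.43 to either side for the 8235 genes with a mean of at least 5 CPM, a 1.35-fold change. It lay wholly between -1 and 1 for 7533 of them (91.5%), and the estimate was beyond 1 in size for 61. For the 1218 genes under 1 CPM the interval extended a median of 1.54. The median log2 fold change of all genes was -0.021, and 54.4% of genes had a value below 0. The adjusted test asks for more than an interval that leaves out 0, and of those 61 genes Saa3 alone passed it.

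The ranges of both groups were separate for 10 genes (0.0793% of genes tested), 5 higher and 5 lower with NAM/PN. Of these, 5 had a mean of at least 5 CPM, and they are described here. Their adjusted p-values were between 0.904 and 1, so none passed the test. They were picked for separation, which some of the 12610 genes tested reach by chance, and are not read as responses. Asb18, a member of the SOCS box family that brings substrates to cullin ubiquitin ligases (ENSMUSG00000067081, chromosome 1, 89950220 to 90014666), measured 5.54 to 8.47 CPM with vehicle (median 5.75) and 8.57 to 14.2 CPM with NAM/PN (median 12.2). A log2 fold change of 0.85 was estimated (SE 0.27, edgeR unadjusted p = 0.00351). Frzb, a secreted WNT antagonist (ENSMUSG00000027004, chromosome 2, 80411970 to 80447625), measured 3.35 to 7.31 CPM with vehicle (median 5.43) and 7.39 to 16.6 CPM with NAM/PN (median 11.9). Its highest vehicle library lay just under its lowest NAM/PN library, and the log2 fold change was 1.13 (SE 0.41, edgeR unadjusted p = 0.00922).

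The other 3 genes had lower values with NAM/PN. Pold4, the accessory subunit of DNA polymerase delta (ENSMUSG00000024854, chromosome 19, 4231899 to 4233634), measured 8.34 to 16 CPM with vehicle (median 11) and 5.83 to 7.51 CPM with NAM/PN (median 7.25), a log2 fold change of -0.69 (SE 0.22, edgeR unadjusted p = 0.00266). In 5 of the 6 NAM/PN libraries it lay between 7.08 and 7.51 CPM. Snd1, a nuclease-domain RNA-binding coactivator (ENSMUSG00000001424, chromosome 6, 28475139 to 28935162), measured 36.8 to 44.7 CPM with vehicle (median 39.3) and 26 to 36.3 CPM with NAM/PN (median 31.1), a log2 fold change of -0.37 (SE 0.14). Amdhd2, the deacetylase of N-acetylglucosamine 6-phosphate (ENSMUSG00000036820, chromosome 17, 24155833 to 24163766), measured 8.9 to 14.1 CPM with vehicle and 5.73 to 8.87 CPM with NAM/PN, a log2 fold change of -0.48 (SE 0.20). Estimates for all 5 genes moved by at most 0.1 without vehicle replicate 6.

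**Figure D1:**
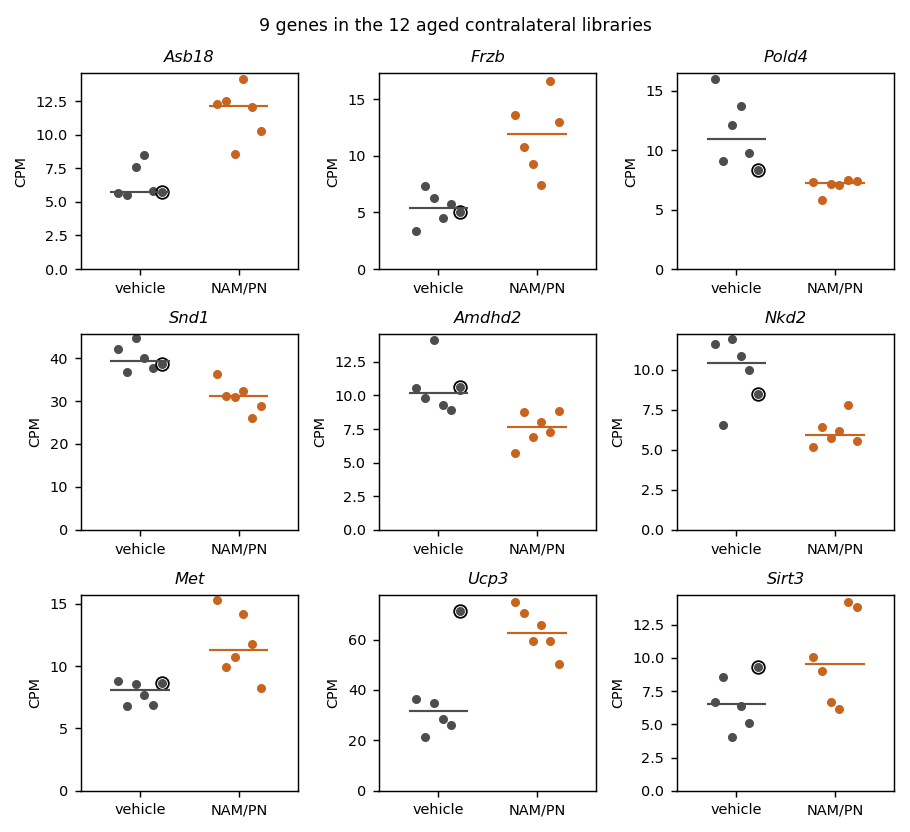
CPM (vertical axes, each from 0) of 9 genes in the 6 vehicle and 6 NAM/PN libraries of aged contralateral muscle, with 1 point per library, a line at the group median and vehicle replicate 6 circled. The groups did not overlap for Asb18, Frzb, Pold4, Snd1 and Amdhd2, and for Ucp3 vehicle replicate 6, at 71.4 CPM, was the only vehicle library within the NAM/PN range.

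Genes that handle NAM and NAD showed no common shift. Of 35 genes in the list, 31 were tested and 0 passed. Their median log2 fold change was -0.08, beside -0.021 for all genes, with 9 values above 0 and 22 below. At an unadjusted p under 0.05, 1 was higher and 4 were lower, where 131 of all 12610 genes were higher and 387 lower. The mean log2(CPM + 1) over the list was 3.15 ± 0.20 (SD, n = 6) in vehicle and 3.08 ± 0.09 (SD, n = 6) in treated libraries. Without vehicle replicate 6 the median was -0.01, and 3 genes were higher and 1 lower at an unadjusted p under 0.05.

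Intervals of Nampt, Nmnat1 and Nmrk2 included 0. Nampt, the rate-limiting enzyme of NAM salvage, measured 40.7 to 91.7 CPM with vehicle (median 62.8) and 29.3 to 102 CPM with NAM/PN (median 77.4), with the lowest value in NAM/PN replicate 4. Its log2 fold change was 0.18 with a 95% interval of -0.29 to 0.64. Nmnat1, the nuclear enzyme that makes NAD from the product of NAMPT, measured 8.53 to 12.4 CPM with vehicle and 7.7 to 15.5 CPM with NAM/PN (95% interval -0.27 to 0.59). Nmrk2, the muscle kinase of nicotinamide riboside, ranged from 85.7 CPM in vehicle replicate 6 to 429 CPM with vehicle and from 105 to 388 CPM with NAM/PN (95% interval -0.92 to 0.58). The groups overlapped fully for all 3. Nnmt, which methylates NAM, had a median of 2.31 CPM with vehicle and 1.68 CPM with NAM/PN (95% interval -1.11 to 0.85), and Aox1, which oxidises the methylated product, had 10.1 and 12.4 CPM (95% interval -0.20 to 0.78).

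Among NAD users, Sirt3, the main mitochondrial deacetylase, had the higher values with NAM/PN. It measured 4.04 to 9.32 CPM with vehicle (median 6.53) and 6.16 to 14.2 CPM with NAM/PN (median 9.57). The groups overlapped, but 3 NAM/PN libraries exceeded every vehicle library. Its log2 fold change was 0.58 (SE 0.24, edgeR unadjusted p = 0.0193, adjusted p = 1), and 0.70 without vehicle replicate 6 (unadjusted p = 0.00777). Sirt1 (95% interval -0.65 to 0.35), Sirt2 (-0.40 to 0.33) and Parp1 (-0.27 to 0.21) had intervals around 0 on the log2 scale. The Parp1 interval is among the narrowest of the list, from 37.4 to 45 CPM with vehicle and 35.4 to 45.5 CPM with NAM/PN.

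Of the 4 genes with lower values, 3 were highest in vehicle replicate 6. Cd38 measured 0.258 to 3.02 CPM in 5 vehicle libraries and 5.88 CPM in replicate 6, and 0.616 to 1.65 CPM with NAM/PN. Bst1, its relative, measured at most 0.898 CPM in the 5 libraries and 3.92 CPM in replicate 6, with at most 0.537 CPM under NAM/PN. Both are carried by leukocytes as well as by other cells. Without vehicle replicate 6 their log2 fold changes went from -1.09 to -0.66 (unadjusted p = 0.127) and from -2.19 to -0.78 (unadjusted p = 0.339). Nadk, the kinase that turns NAD into NADP, measured 3.18 to 16.3 CPM with vehicle and 1.85 to 6.44 CPM with NAM/PN (log2 fold change -0.90, edgeR unadjusted p = 0.0224), and -0.62 without replicate 6 (unadjusted p = 0.114). Nmnat2, the cytosolic enzyme known from axons, had a median of 1.21 CPM with vehicle and 0.384 CPM with NAM/PN, and its log2 fold change of -1.36 (edgeR unadjusted p = 0.0274) was -1.29 without replicate 6 (unadjusted p = 0.0494).

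**Figure D2:**
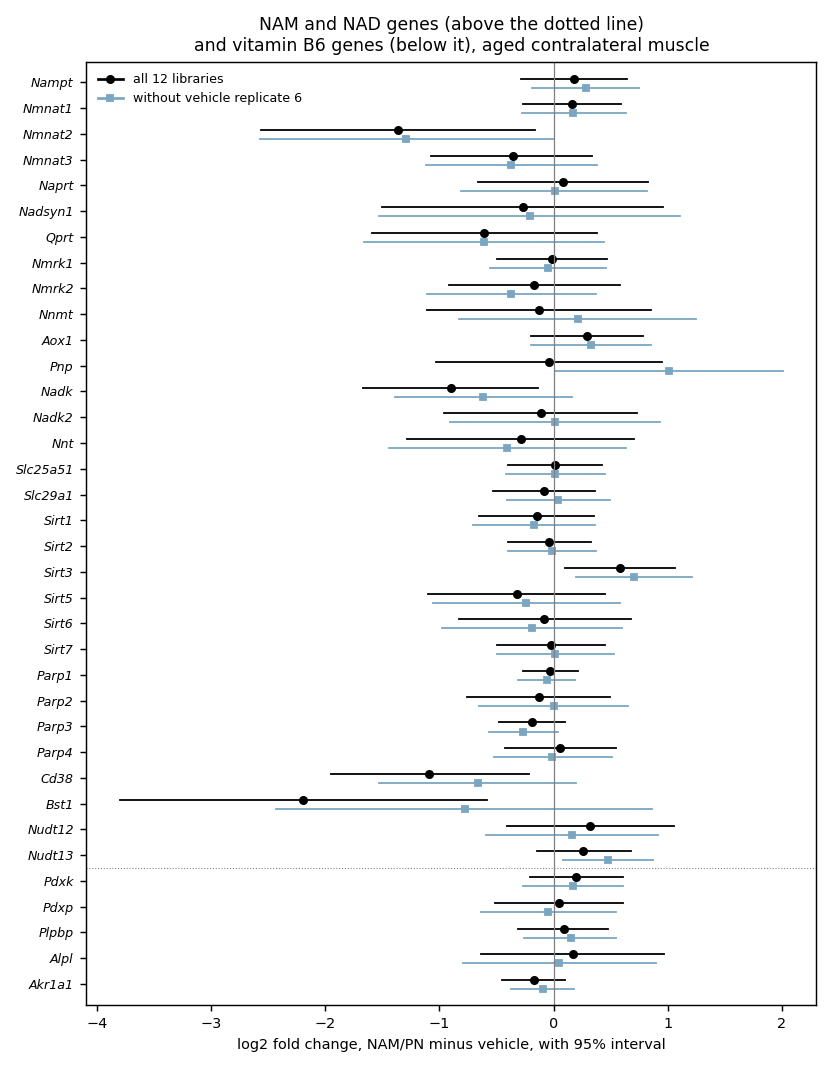
Log2 fold change with its 95% interval (horizontal axis, NAM/PN minus vehicle) for the 31 NAM and NAD genes and 5 vitamin B6 genes, with all 12 libraries (black) and without vehicle replicate 6 (blue). Most intervals include 0, and those of Bst1, Cd38 and Nadk do so once that library is left out.

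All 6 vitamin B6 genes were tested, and 0 had an unadjusted p under 0.05. Their median log2 fold change was 0.07, with 4 values above 0 and 2 below, and it was 0 without vehicle replicate 6. The 2 genes below 0 are not described individually. Pdxk, the kinase that acts on PN first, measured 6.68 to 18.6 CPM with vehicle (median 12.9) and 12.1 to 19.1 CPM with NAM/PN (median 13.7), with a 95% interval of -0.21 to 0.61. The 95% intervals of Pdxp, the PLP phosphatase, Plpbp, the PLP-binding protein, and Alpl, the ectophosphatase that acts on PLP outside cells, were -0.51 to 0.61, -0.31 to 0.48 and -0.64 to 0.97.

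Of 42 enzymes that use PLP as cofactor 33 were tested, and their median was -0.01, with 16 values above 0. Of them 1, Alas2, had an unadjusted p under 0.05, higher with NAM/PN, where 131 of all 12610 genes were higher at that threshold. Without vehicle replicate 6, 0 of these enzymes had one. Alas2, the first enzyme of haem synthesis in red cells, measured 4.53 to 8.73 CPM with vehicle and 6 to 18 CPM with NAM/PN (log2 fold change 0.69, edgeR unadjusted p = 0.0295), and it is also an erythroid marker. The 6 erythroid genes tested all had values above 0, with a median of 0.40, and the summed level of that list was 461.3 to 1022 CPM with vehicle and 386.5 to 1916 CPM with NAM/PN. NAM/PN replicate 5 was the highest library for 5 of these 6 genes, and without it their median was 0.14. The part of blood in the difference of Alas2 was not tested. Pygm, muscle glycogen phosphorylase, had a log2 fold change of 0.06 (95% interval -0.49 to 0.60), and the aspartate transaminases Got1 and Got2 had 0.18 and -0.06.

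NAM and PN are studied in muscle stem cells in connection with WNT and AKT signalling, and both lists were examined. Of 12 beta-catenin target genes tested, 0 passed and 2 had an unadjusted p under 0.05, as had 518 of all 12610 genes. Nkd2, a feedback inhibitor that binds Dishevelled, measured 6.55 to 11.9 CPM with vehicle (median 10.4) and 5.18 to 7.78 CPM with NAM/PN (median 5.93). Only vehicle replicate 2 lay within the NAM/PN range, and the log2 fold change was -0.69 (SE 0.22, edgeR unadjusted p = 0.00303, adjusted p = 0.904). Wif1, a secreted WNT inhibitor, was at or under 0.756 CPM in every vehicle library and reached 3.27 CPM with NAM/PN (log2 fold change 1.94, unadjusted p = 0.02), at a few counts per library. Frzb, described above, is another WNT antagonist. The list median was 0.06, and it was -0.15 without NAM/PN replicate 5.

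For insulin and AKT signalling, 20 of 29 genes were above 0 and the median was 0.10. Eif4ebp1, the translation repressor that mTORC1 phosphorylates, was the 1 member with an unadjusted p under 0.05, beside 518 of all 12610 genes. It measured 17.5 to 50.4 CPM in 5 vehicle libraries, 257 CPM in vehicle replicate 6 and 24 to 43.5 CPM with NAM/PN. On the log2 scale the difference was -0.97 with all libraries and 0.08 without replicate 6.

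Stem cell and myogenesis genes did not move together, with 10 of 24 genes above 0 and a median of -0.16. That median was 0.26 without vehicle replicate 3, the highest library for 9 of the 24. Pax7, the transcription factor that marks muscle stem cells, measured 1.03 to 6.06 CPM with vehicle (median 3.06) and 1.54 to 4.96 CPM with NAM/PN, a log2 fold change of -0.34 with a 95% interval of -1.08 to 0.40. In bulk muscle, fewer cells of a type and less RNA per cell cannot be told apart. Met, the receptor of hepatocyte growth factor, measured 6.8 to 8.77 CPM with vehicle (median 8.1) and 8.25 to 15.3 CPM with NAM/PN (median 11.3). In 5 of the 6 NAM/PN libraries it exceeded every vehicle library, and the log2 fold change was 0.56 (SE 0.20, edgeR unadjusted p = 0.00701, adjusted p = 1). Hes1, a Notch target, had medians of 7.99 and 14.8 CPM (log2 fold change 0.67, unadjusted p = 0.0436). Fgfr4 was at most 3.14 CPM in all libraries and highest in vehicle replicates 3 and 6.

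Among 28 genes of atrophy and FoxO activity the median log2 fold change was 0, and 2 had an unadjusted p under 0.05, both higher with NAM/PN. At that threshold 131 of all 12610 genes were higher. Ddit4, a stress-induced inhibitor of mTORC1, measured 11.1 to 23.8 CPM in 4 vehicle libraries and 76.1 and 112 CPM in replicates 5 and 6. With NAM/PN it measured 25.2 to 77.8 CPM in 5 libraries and 364 CPM in replicate 1. The log2 fold change was 1.37 (SE 0.51, edgeR unadjusted p = 0.0113) with all libraries and 1.92 (unadjusted p = 0.000777) without vehicle replicate 6. Foxo6 measured 2.45 to 8.75 CPM with vehicle (median 3.7) and 3.7 to 13.6 CPM with NAM/PN (median 8.39), a log2 fold change of 0.88 (edgeR unadjusted p = 0.00899). The ubiquitin ligases that define the list were near 0. Trim63 had a log2 fold change of 0.01 (95% interval -0.65 to 0.66) and Fbxo32 one of -0.08 (95% interval -0.68 to 0.52), with the highest Trim63 value, 554 CPM, in vehicle replicate 6.

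Of the 25 genes of fatty acid use and fasting that were tested, 20 had values above 0, with a median of 0.08. Of them 1 had an unadjusted p under 0.05, beside 518 of all 12610 genes (4.11%). Ucp3, a mitochondrial carrier that muscle induces in fasting (ENSMUSG00000032942, chromosome 7, 100472990 to 100486432), measured 21.2 to 36.4 CPM in 5 vehicle libraries and 71.4 CPM in vehicle replicate 6. With NAM/PN it measured 50.3 to 75 CPM (median 62.7). All 6 NAM/PN libraries thus lay above 5 vehicle libraries and around the sixth. The log2 fold change was 0.79 (SE 0.37, edgeR unadjusted p = 0.0403) with all libraries and 1.09 (SE 0.38, unadjusted p = 0.00709, adjusted p = 1) without vehicle replicate 6. Pdk4, another fasting gene, had a log2 fold change of 0.73 (95% interval -0.27 to 1.72).

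Nuclear subunits of oxidative phosphorylation centred on 0.05 (median, log2 scale), and 0 of 77 had an unadjusted p under 0.05, although 55 were above 0. Leaving out vehicle replicate 6 gave a median of 0.02, with 42 above 0 and 35 below. Of the mitochondrially encoded protein genes 9 were tested, 8 with values above 0 and a median of 0.20, and the smallest unadjusted p was 0.267. Lipogenic genes had a median of 0.20. Of them 1, Fasn, had an unadjusted p under 0.05 with all libraries, beside 518 of all 12610 genes. Without vehicle replicate 6, 0 lipogenic genes had one. Fasn, fatty acid synthase, measured 14.6 to 73 CPM with vehicle and 14.3 to 168 CPM with NAM/PN (log2 fold change 1.06, edgeR unadjusted p = 0.0361), with its 2 highest values in NAM/PN replicates 1 and 2. NAM/PN replicate 2 was also the highest library in adipocyte genes, as described below.

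Slow-fibre genes differed between mice far more than between treatments. Myh7, the slow myosin heavy chain, measured 25.4 to 405 CPM with vehicle (median 69.1) and 0.545 to 1078 CPM with NAM/PN (median 158). Both extremes were NAM/PN libraries, replicate 1 at the low end and replicate 4 at the high end. Its estimate was 1.31 on the log2 scale with a 95% interval of -1.11 to 3.73. The slow troponin Tnnt1 ranged from 7.09 to 1049.7 CPM, with the same libraries at both ends. Over the 14 slow-fibre genes the median log2 fold change was 0.59, the median interval extended 1.6 to either side, and 0 had an unadjusted p under 0.05. The list score had an SD of 1.01 (n = 6) in vehicle libraries and of 1.53 (n = 6) in treated ones. The 20 fast-fibre genes had a median of 0 with values between -0.16 and 0.13. That median was -0.09 without vehicle replicate 6, with 3 values above 0 and 17 below. Myh4, the fastest myosin, had a log2 fold change of 0.05 (95% interval -0.48 to 0.59).

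A second group of fibre genes separated individual mice. Myh3 and Myh8, the embryonic and perinatal myosins, Mymk, which fuses myoblasts, and Chrng, the fetal acetylcholine receptor subunit, are known from growing, regenerating or denervated fibres. Myh3 measured 249 CPM in vehicle replicate 3 and 91.7 CPM in vehicle replicate 6, but 2.23 to 17.7 CPM in the other 4 vehicle libraries. With NAM/PN it measured 123 and 88.9 CPM in replicates 5 and 6 and 2.73 to 23.8 CPM in the other 4. Chrng followed with 46.4 and 9.64 CPM in the vehicle pair and 9.93 and 11.5 CPM in the NAM/PN pair, against at most 4.52 CPM in any other library. The same 4 libraries were thus highest in both groups. For comparison, young vehicle contralateral muscle had a mean of 7.04 CPM of Myh3 and aged vehicle injured muscle 1038 CPM. Treatment differences were within this spread, with 95% intervals of the log2 fold change of -2.08 to 1.10 for Myh3, -1.58 to 1.66 for Myh8 and -2.46 to 0.57 for Mymk. These 4 genes were singled out after their values were seen.

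**Figure D3:**
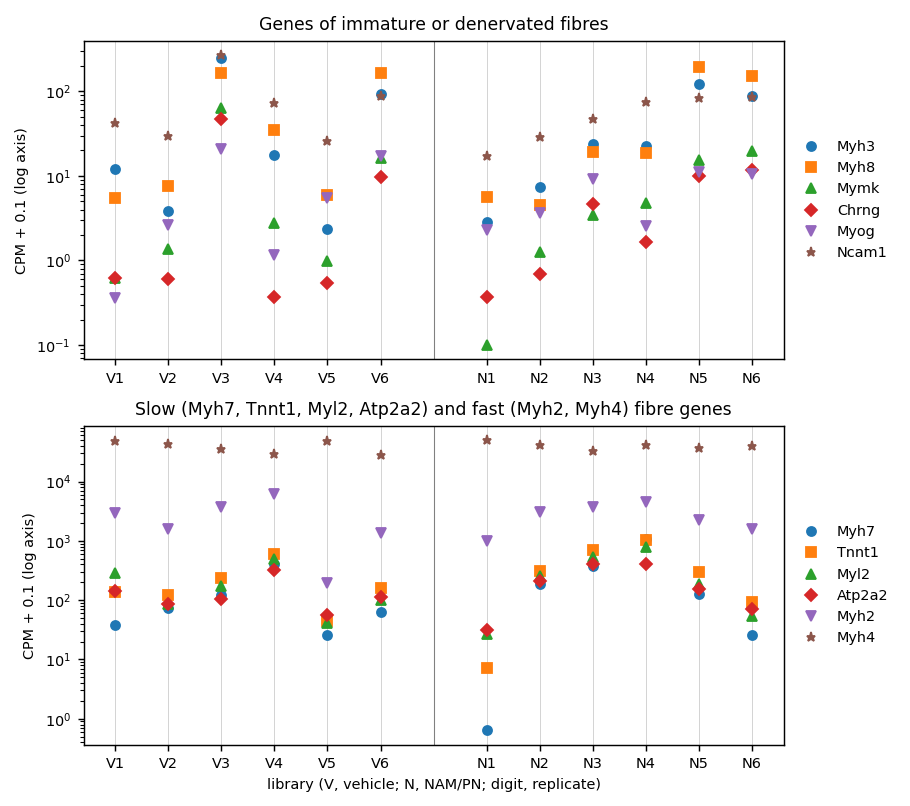
CPM plus 0.1 on a log axis for 6 genes of immature or denervated fibres (upper panel) and 6 fibre-type genes (lower panel) in each of the 12 libraries, V for vehicle and N for NAM/PN with the replicate number. Vehicle replicates 3 and 6 and NAM/PN replicates 5 and 6 had the highest Myh3, Myh8, Mymk and Chrng, whereas Myh7 ran from 0.545 to 1078 CPM within the NAM/PN group.

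Interferon-stimulated genes had lower values with NAM/PN when all libraries were used, and this rested on vehicle replicate 6. Of 59 genes tested, 52 were below 0, the median log2 fold change was -0.43, and 15 had an unadjusted p under 0.05, all lower, where 387 of all 12610 genes were lower at that threshold. Vehicle replicate 6 was the highest of the 12 libraries for 50 of the 59 genes, and for 1588 of all 12610 genes. Without it the median was 0, with 30 values above 0 and 29 below, and 1 gene was higher and 1 lower at an unadjusted p under 0.05. Isg15, a ubiquitin-like protein, measured 29.7 CPM in vehicle replicate 6, 1.85 to 4.67 CPM in the other 5 vehicle libraries and 0.616 to 6.44 CPM with NAM/PN. Ifit3, an interferon-induced antiviral protein, measured 41.8 CPM there, 1.8 to 5.54 CPM in the other 5 and 0.545 to 10.7 CPM with NAM/PN. The 2 groups overlapped once that library was set aside.

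The 1 interferon gene that stayed lower at an unadjusted p under 0.05 was Stat2, a subunit of the interferon-activated factor ISGF3. It measured 2.45 to 8.2 CPM in 5 vehicle libraries (11.8 CPM in replicate 6) and 2.62 to 5.54 CPM with NAM/PN. Its log2 fold change was -0.82 (SE 0.26, edgeR unadjusted p = 0.00317, adjusted p = 0.904) with all libraries and -0.62 (unadjusted p = 0.0249, adjusted p = 1) without replicate 6.

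The binding element of ISGF3 contains 2 GAAA blocks spaced by 2 bases. The motif GAAANNGAAA was searched on both strands in the 250 bases before the start of each gene (RefSeq, GRCm38.p6). It occurred in 17 of the 43 interferon-stimulated genes that were tested and had an entry (39.5%) and in 3.46% of all 27025 genes with one. A match is a description of the letters and was not tested for binding. Windows of 30 bases are shown for the genes whose values were given above and for Ifit1, on the strand of the gene, with 1 match per gene in capitals (TTTC blocks where it lies on the other strand). In Isg15 that match overlaps another one, left in lower case. The Isg15 window lies at chr4:156200877-156200906, minus strand, that of Ifit3 at chr19:34583363-34583392, plus strand, that of Ifit1 at chr19:34640775-34640804, plus strand, and that of Stat2 at chr10:128270266-128270295, plus strand.
Isg15: tatgccgtagGAAAAGGAAAccgaaacaga
Ifit3: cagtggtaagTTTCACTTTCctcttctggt
Ifit1: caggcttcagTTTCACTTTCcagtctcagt
Stat2: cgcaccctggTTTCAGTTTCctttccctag

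Ifit1 measured 42 CPM in vehicle replicate 6, 1.06 to 8.51 CPM in the other 5 vehicle libraries and 2.18 to 15.1 CPM with NAM/PN. Isg15, Ifit3 and Ifit1 had further matches within the same 250 bases, which are not printed. Irf7, which amplifies interferon production, measured 38.9 CPM in that library, 0.504 to 11.6 CPM in the other 5 and 3 to 10.3 CPM with NAM/PN.

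Acute-phase and inflammatory genes showed the same dependence. Of 31 genes tested, 27 were below 0 with a median log2 fold change of -0.68, 9 had an unadjusted p under 0.05, all lower, and Saa3 passed. Over all 12610 genes, 387 were lower at that threshold. Vehicle replicate 6 was the highest library for 26 of them. Without it the median was 0.07, with 19 values above 0. Lcn2, an iron-binding acute-phase protein, measured 60.3 CPM in vehicle replicate 6, at most 2.24 CPM in the other 5 and at most 1.61 CPM with NAM/PN. Chil3, a chitinase-like protein of myeloid cells, measured 20.6 CPM there and at most 0.529 CPM elsewhere. S100a8, a neutrophil calcium-binding protein, measured 77.2 CPM there, 3.18 to 7.99 CPM in the other 5 and 0.924 to 7.24 CPM with NAM/PN.

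One chemokine kept a lower value without that library. Ccl5, which attracts T cells and monocytes, measured 0.265 to 2.06 CPM in 5 vehicle libraries, 8.66 CPM in replicate 6 and 0 to 0.619 CPM with NAM/PN. The log2 fold change was -2.90 (SE 0.62, edgeR unadjusted p = 4.12e-05, adjusted p = 0.173) and -1.88 without replicate 6 (unadjusted p = 0.00172, adjusted p = 1). These levels are at most a few counts per library in the NAM/PN group, and vehicle replicate 4 lay within its range.

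Markers of macrophages and neutrophils moved with these genes. The 16 macrophage genes together took 1695 CPM in their highest vehicle library and 138.2 CPM in the lowest (median 283.4), and 263.3 to 495.5 CPM with NAM/PN (median 318.9). Lyz2, lysozyme of macrophages and granulocytes, measured 621 CPM in vehicle replicate 6 and 20.6 to 122 CPM in the other 5. Of the 16 genes, 15 were below 0 with a median log2 fold change of -0.83, which was -0.14 without replicate 6. Itgam, the integrin of myeloid cells, kept a lower value, with 1.78 to 22.2 CPM in 5 vehicle libraries (33.7 CPM in replicate 6) and 1.64 to 6.47 CPM with NAM/PN. Its log2 fold change was -1.58 (edgeR unadjusted p = 0.00126) and -1.05 without replicate 6 (unadjusted p = 0.0212). The neutrophil list took 147.9 CPM in its highest vehicle library and 4 to 23.07 CPM with NAM/PN, with Elane at 0 in all 12 libraries, and its median went from -1.35 to 0.12 over 6 genes tested. The T and NK cell list was at most 6.28 CPM in sum, and Cd79a of B cells was at 0 throughout. The part of leukocytes in the interferon and acute-phase values was not tested.

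Vehicle replicate 6 also differed in genes that fibres use. It had the highest value in 12 of 28 atrophy genes, and the score of that list was 6.23 there and 5.38 to 5.53 in the other 5 vehicle libraries. The metallothioneins Mt1 and Mt2, which bind metals and respond to stress hormones and cytokines, measured 1282 and 1085 CPM there, against 60.7 to 140 CPM and 22.2 to 73.8 CPM in the other 5. NAM/PN replicate 1 was also high, at 581 and 307 CPM, with 17.9 to 106 CPM of either gene in the other 5 NAM/PN libraries. The log2 fold change of Mt2 was -1.27 (edgeR unadjusted p = 0.0909) with all libraries and 1.29 (unadjusted p = 0.0228) without vehicle replicate 6. Without both vehicle replicate 6 and NAM/PN replicate 4, 0 genes passed in edgeR. Fkbp5, a glucocorticoid target named after its values were seen, measured 128 CPM in vehicle replicate 6 and 2.65 to 27.4 CPM in the other 5.

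**Figure D4:**
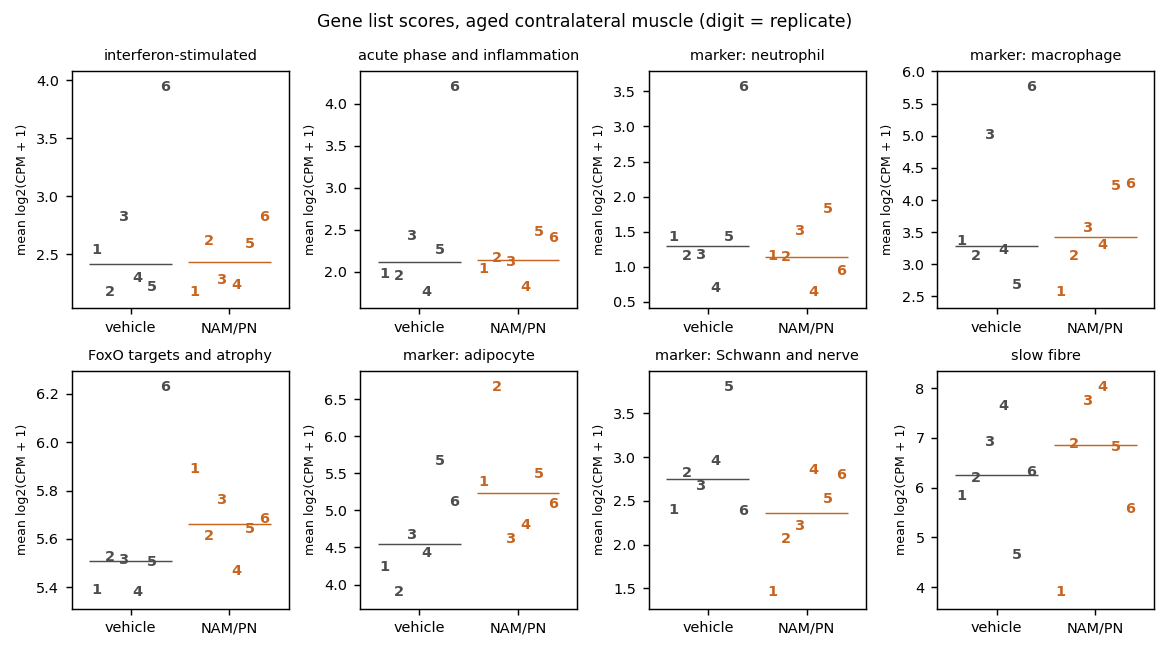
Mean log2(CPM + 1) over the tested genes of 8 lists (vertical axes, which do not start at 0) in each library, drawn as its replicate number, with a line at the group median. Vehicle replicate 6 stands highest for the interferon, acute-phase, neutrophil, macrophage and atrophy lists, and slow-fibre scores run from 3.90 to 8.02 within the NAM/PN group.

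Fat and nerve genes varied between libraries too. The 11 adipocyte genes had a median of 1.04 on the log2 scale (1.01 without vehicle replicate 6), and 4 had an unadjusted p under 0.05, all higher, where 131 of all 12610 genes were higher at that threshold. Adipoq, the adipocyte hormone adiponectin, measured 0.756 to 19.1 CPM with vehicle (median 3.61) and 3.81 to 60.4 CPM with NAM/PN (median 8.96), a log2 fold change of 1.47 (SE 0.69, edgeR unadjusted p = 0.0402). NAM/PN replicate 2 was the highest library for 7 of the 11 genes. Without it the median was 0.33, and without vehicle replicate 5 it was 1.87. Lipe, hormone-sensitive lipase, measured 91.6 CPM in NAM/PN replicate 2 and 20.4 to 35.9 CPM in the other 11 libraries.

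Schwann cell genes had lower values, the median being -0.78 on the log2 scale over 11 genes, 10 below 0 and 4 with an unadjusted p under 0.05. All 4 were lower, where 387 of all 12610 genes were lower at that threshold. Sox10, the transcription factor of Schwann cells, measured 2.62 to 9.57 CPM with vehicle (median 5.96) and 1.09 to 6.16 CPM with NAM/PN (median 3.08), a log2 fold change of -0.85 (SE 0.39, edgeR unadjusted p = 0.036) that was -1.02 without vehicle replicate 6. Vehicle replicate 5 was highest for 7 of the 11 genes, and without it the list median was -0.38. How much nerve or fat was dissected with each muscle is not given in the sources used here, and its part in these values was not tested.

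Endothelial (0.05), fibro-adipogenic (0.02) and pericyte (-0.09) markers lay near the median of all genes. The extracellular matrix list had a median of -0.04 over 49 genes. Fmod, a collagen-binding proteoglycan shared with the tendon list, had 25.8 to 64.3 CPM with vehicle and 36.5 to 111 CPM with NAM/PN (log2 fold change 0.75, edgeR unadjusted p = 0.0439). Tendon markers had a median of 0.66 over 7 genes, and their sum was 68.3 to 151 CPM with vehicle and 90.4 to 212.2 CPM with NAM/PN. Cell cycle genes had a median of -0.46, which was 0 without vehicle replicate 3, the highest library for 17 of 40. Liver markers had a median of 1.03 at 9.26 to 67.95 CPM in sum over 20 genes, with intervals that extended a median of 4.03, too wide to read. Medians of the remaining lists were -0.16 for denervation and junction genes, 0 for glycolysis and glycogen, 0.11 for clock genes, -0.06 for heat shock, -0.01 for redox genes and -0.08 for methyl donor metabolism. Antigen presentation had a median of -0.28 (-0.06 without vehicle replicate 6), T and NK cells one of -0.40 (0.01 without it) and B and plasma cells one of -0.49 (-0.08 without it). Leaving out vehicle replicate 3 instead gave -0.02 for antigen presentation and 0.12 for denervation and junction genes.

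**Figure D5:**
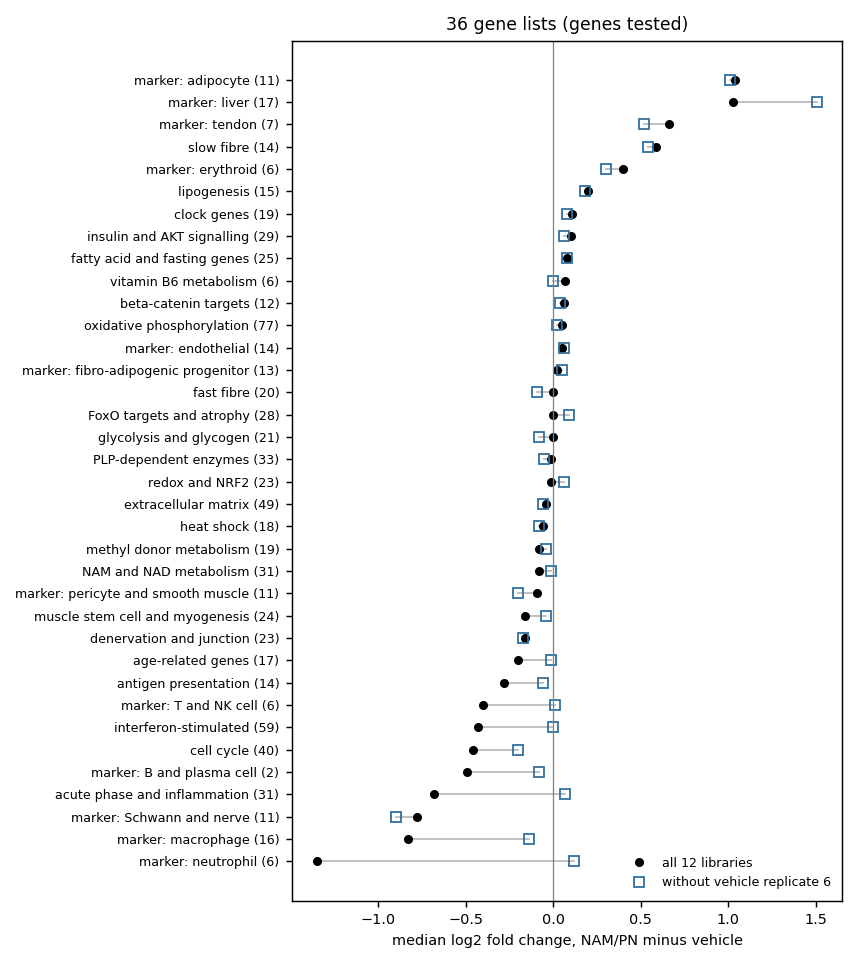
Median log2 fold change (horizontal axis, NAM/PN minus vehicle) of 36 gene lists with all 12 libraries (filled circles) and without vehicle replicate 6 (open squares), with the number of genes tested in brackets. The neutrophil, macrophage, acute-phase and interferon medians moved to between -0.14 and 0.12, whereas the adipocyte, Schwann and slow-fibre medians stayed at 1.01, -0.90 and 0.54.

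The NAM/PN difference was compared with that of the injured leg by an interaction in aged mice. In edgeR 0 genes passed (0% of 12610 genes), 964 had an unadjusted p under 0.05, and the smallest adjusted p was 0.32. Asb18 was among the genes with that smallest value. It measured a mean of 3.55 CPM with vehicle and 1.59 CPM with NAM/PN in injured muscle, a log2 fold change of -1.16 (SE 0.39), against 0.85 (SE 0.27) in contralateral muscle. The difference of both was 2.01 (SE 0.48, edgeR unadjusted p = 0.00017, adjusted p = 0.32). Sirt3 had log2 fold changes of -0.56 in injured and 0.58 in contralateral muscle, a difference of 1.14 (SE 0.38, adjusted p = 0.444). DESeq2 called 36 genes in this interaction and voom with quality weights 183. The edgeR fit did not pair both legs of the same mouse. With mouse as replicate block 0 genes passed, but that fit used voom without quality weights, so model and pairing changed together.

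The same comparison was made with the NAM/PN difference of 5 treated and 6 vehicle young mice in contralateral muscle. In the names of the count columns, treated libraries carry one compound code in young mice and another in aged mice. What the codes stand for is not given in the sources used here. A difference between ages cannot be told apart from one between these codes. In edgeR 0 genes passed (0% of 12610 genes), 706 had an unadjusted p under 0.05, and the smallest adjusted p was 0.68. Nkd2, Foxo6 and Ccl5 had that value. Nkd2 had a log2 fold change of 0.46 (SE 0.23) in young and -0.69 (SE 0.22) in aged muscle. Foxo6 had -0.85 (SE 0.31) in young and 0.88 (SE 0.32) in aged muscle, and its vehicle mean was 14.35 CPM in young mice.

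Of 17 age-related genes tested, 1 was higher and 1 lower with NAM/PN at an unadjusted p under 0.05. At that threshold 131 of all 12610 genes were higher and 387 lower. The list median was -0.20 (-0.01 without vehicle replicate 6). Leaving out vehicle replicate 3 instead gave a median of 0.01. Eda2r, the receptor of ectodysplasin A2, measured 17.3 to 28.3 CPM with vehicle (median 23.5) and 7.09 to 22.9 CPM with NAM/PN (median 15.5). In 3 NAM/PN libraries it was below every vehicle library, and the log2 fold change was -0.60 (edgeR unadjusted p = 0.0261), or -0.53 without vehicle replicate 6 (unadjusted p = 0.0566). Nrep, a neuronal regeneration protein, measured 22.7 to 72 CPM with vehicle (median 58.5) and 36.6 to 179 CPM with NAM/PN (median 76.9). The groups overlapped, with a log2 fold change of 0.69 (edgeR unadjusted p = 0.0159), or 0.52 without vehicle replicate 6 (unadjusted p = 0.0618).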

How the data were processed

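Contralateral gastrocnemius of 12 aged mice was examined. The authors prepared 3' mRNA libraries, aligned reads to GRCm38 with STAR, counted them per gene with HTSeq and deposited raw counts for 27554 Ensembl genes in 38 libraries. The annotation release and strand setting are not given in the sources used here, so overlapping, antisense and paralogous genes are uncertain. Reads carried no molecular identifiers, and errors come from the spread between mice, 1 library per mouse and leg. Symbols and positions came from GENCODE M21 (27518 identifiers found).

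A quasi-likelihood model with 1 coefficient per group (8 groups) was fitted to all 38 libraries (edgeR 4.0.16, R 4.3.3, TMM, filterByExpr, 12610 genes tested), with Benjamini-Hochberg adjustment over all genes and a threshold of 0.05. The SE is the size of the log2 fold change divided by the square root of the test's F statistic. Intervals derive from that SE, so both are approximate and unstable for genes with a log2 fold change near 0. List scores are means of log2(CPM + 1). Within-group libraries were compared for duplicates (30 pairs, lowest chi-square per degree of freedom 6.36). Code was tested on simulated data.

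Members and the 36 gene lists were chosen with earlier results of these data known. Named genes are those past the threshold, those of at least 5 CPM without overlap (up to 12 per direction), NAM, NAD and B6 genes, the highest 2 to 4 members of a list and its smallest p-values (at most 4), and the 4 genes per immune or cell type list that differ most in vehicle replicate 6. Chrng, Fkbp5, Isg15, Mt2, Myh7, Mymk, Pax7 and Pdk4 were named after their values were seen.

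Alternatives were RLE factors, no filter, a mean of 1 CPM, DESeq2 1.42.0 and voom with quality weights (limma 3.58.1). Others were a replicate block by mouse (voom without quality weights) or title number (edgeR), the 12 libraries alone and leaving out each library. Leaving out 2 libraries together was chosen after seeing the data. A few genes of the lists are not reported individually here.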

Additional observations from a re-analysis of the deposited data

Results flagged for a closer look

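In the 2 groups of 6, 74 group values (36 list scores and the mitochondrial share in each group) were examined for a library far from the rest by Dixon's criterion. A total of 8 stood apart, where chance at 5% gives about 3.7 for independent values. The lists were chosen with earlier results of these data known, and some share genes. The excess over 3.7 can therefore not be read as a test. Scores are mean log2(CPM + 1).

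Of these, 4 were aged vehicle contralateral replicate 6. Its interferon-stimulated score was 3.94 (2.17 to 2.82 in the other 5), its acute-phase score 4.2 (1.76 to 2.43), its neutrophil score 3.56 (0.69 to 1.43) and its atrophy score 6.23 (5.38 to 5.53). The lipogenesis score of vehicle replicate 5 was 4.46 (3.64 to 3.93), and the endothelial score of vehicle replicate 4 was 5.11 (4.39 to 4.65). In aged NAM/PN contralateral replicate 4 the redox score was 4.81 (5.15 to 5.32 in the other 5) and the B and plasma cell score 0.96 (2.24 to 2.88), the latter over 2 genes.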

How the results depend on the processing

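The count of 1 called gene in aged contralateral muscle was the same with RLE factors, without a filter and at a mean of 1 CPM. It was 0 with DESeq2, where 542 of 12610 genes had an unadjusted p under 0.05 and Saa3 was given no adjusted p. It was also 0 with voom with quality weights (830 of 12610, or 598 of 9799 on the 12 libraries alone). The same held for the 12 libraries alone in edgeR (102 of 9799). Without both vehicle replicate 6 and NAM/PN replicate 4 it was 0 as well (1117 of 12592). The main fit had 518 of 12610 at that threshold. Leaving out 1 library gave 0 to 3 genes: 0 without vehicle replicate 6 (Saa3 log2 fold change -0.18), 0 without any 1 NAM/PN library (Saa3 -10.21 to -9.43, so only the call was lost), 2 without vehicle replicate 5 and 3 without vehicle replicate 4 (Saa3, Lcn2 and Ccl5). Saa3 had a log2 fold change of 0.01 without both vehicle replicate 6 and NAM/PN replicate 4. The leg interaction gave 36 genes with DESeq2 and 183 with voom with quality weights, and 0 without any 1 library. The age interaction gave 0 in every alternative. The cause of these shifts was not tested.

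A replicate block by mouse, fitted in voom without quality weights and not in edgeR, left 0 calls. In it 291 of 12610 genes were under 0.05 before adjustment, and both interactions also gave 0. Title numbers are shared between groups but name different mice. Same-numbered libraries deviated with correlations of -0.106 to 0.835, and 1 of 6 vehicle libraries correlated best with its own number. With the title number as replicate block in edgeR 0 genes were called (198 of 9799 under 0.05 before adjustment).

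The mitochondrial share differed by 1.53 to 4.61 points when 1 library was left out, and it passed 0.05 only without NAM/PN replicate 4 (4.61). Of 468 list medians under RLE factors or without 1 library, 10 moved by more than 1 SD of the list score. Of 4927 values of 229 named genes under the alternatives, 4808 kept their direction and call or moved by less than 1 SD.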
